A study of Mus musculus with 6 samples.

Results

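The genes described here encode the enzymes that activate, shuttle and oxidise fatty acids as acyl-CoA, and the peroxins that build peroxisomes. They were taken by name from a table of 13026 mouse genes: names beginning with Acad, Acox, Acaa, Acsl, Acsm, Acot, Cpt, Hadh, Ehhadh, Ech, Eci, Etf, Decr, Hacl, Crat or Crot, and Pex followed by digits. Of 78 names that matched, 3 were left out, namely Acsl4 as the rule asks, Cptp, a ceramide phosphate carrier, and Etf1, a translation termination factor. The 75 members were placed by the known site of their proteins: 31 in mitochondria, 31 in peroxisomes (15 enzymes and 16 peroxins), 6 in several compartments and 7 in the cytosol or endoplasmic reticulum. Whole kidneys came from adult male C57BL/6J mice, 3 LIGHT knockout (LIGHT-/-) and 3 wild type (LIGHT+/+) samples with 1 library each, and both genotypes had the same injury, 32 min of ischemia of both kidneys and then 24 h of reperfusion. LIGHT is a TNF family cytokine, and Tnfsf14 is its gene. Tnfsf14 itself and unoperated kidneys were not analysed here. The comparison asks how these genes differ between genotypes in the injured kidney. The labels do not say whether each sample is a different mouse, and the spread behind each p-value may be partly technical.

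Fatty acids are the main fuel of the proximal tubule, the nephron segment richest in mitochondria and peroxisomes. In beta-oxidation an acyl-CoA is oxidised, hydrated, oxidised again and cleaved by a thiolase to release acetyl-CoA. Long chains enter mitochondria as carnitine esters, while peroxisomes shorten very long and branched chains, and their oxidases pass electrons to oxygen and form hydrogen peroxide. Many of these genes are targets of PPAR alpha, a nuclear receptor activated by fatty acids. Peroxins import enzymes into peroxisomes, and the receptors Pex5 and Pex7 recognise the targeting signals of the cargo.

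The deposited values are FPKM, a measure of level per transcript length and per library total that does not show how many reads were counted. They summed to between 299667 and 318493 per library. The 75 members held 1.05, 1.06 and 1.06% of that sum in knockout libraries 1 to 3, against 1.02, 1.06 and 0.8% in wild type libraries 1 to 3. Wild type library 3 was the low one. Knockout library 3 stood apart over all genes, with Pearson correlations across genes of 0.934 to 0.956 with the other libraries, while each of the other 5 had a correlation of at least 0.985 with some other library. In bulk tissue, fewer cells of a type and less RNA per cell cannot be told apart.

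No member passed the test between genotypes. All 75 had a mean of at least 0.5 FPKM and were tested in limma with the 12836 genes kept, on the log2(FPKM + 1) scale, which understates differences of genes of low level. Of all genes, 15 passed an adjusted p of 0.05, which is 0.117%, namely 3 higher (0.0234%) and 12 lower (0.0935%), and the smallest adjusted p among the members was 0.592. At an unadjusted p under 0.05 there were 10 members, against 8.08% of all genes tested. Of these 8 were higher in knockout, 10.7% of the members, against 4.34% of all genes. On the lower side there were 2, or 2.67%, against 3.74% of all genes. The members' median log2 fold change was 0.14, against -0.01 over all genes, and 55 of 75 lay above 0, as did 47.9% of all genes.

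In 9 members every knockout library lay above every wild type library, 12.0% of the members against 7.76% of all genes. They were Acadm, Acsm1, Echdc2, Echdc3, Echs1, Etfb, Hadh and Hadhb of mitochondria and Decr2 of peroxisomes. In 3 members, Acot5, Acot9 and Acsl5, every knockout library lay below, 4.00% of the members against 8.8% of all genes. Over both directions 16.6% of all genes did not overlap. Wild type library 3 was the lowest of the 6 in 45 of the 75 members (60.0%), against 15.2% of all genes. Knockout library 3 was the highest in 34 members (45.3%, against 29.8% of all genes) and the lowest in 15 members (20.0%, against 30.3% of all genes).

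**Figure D1:**
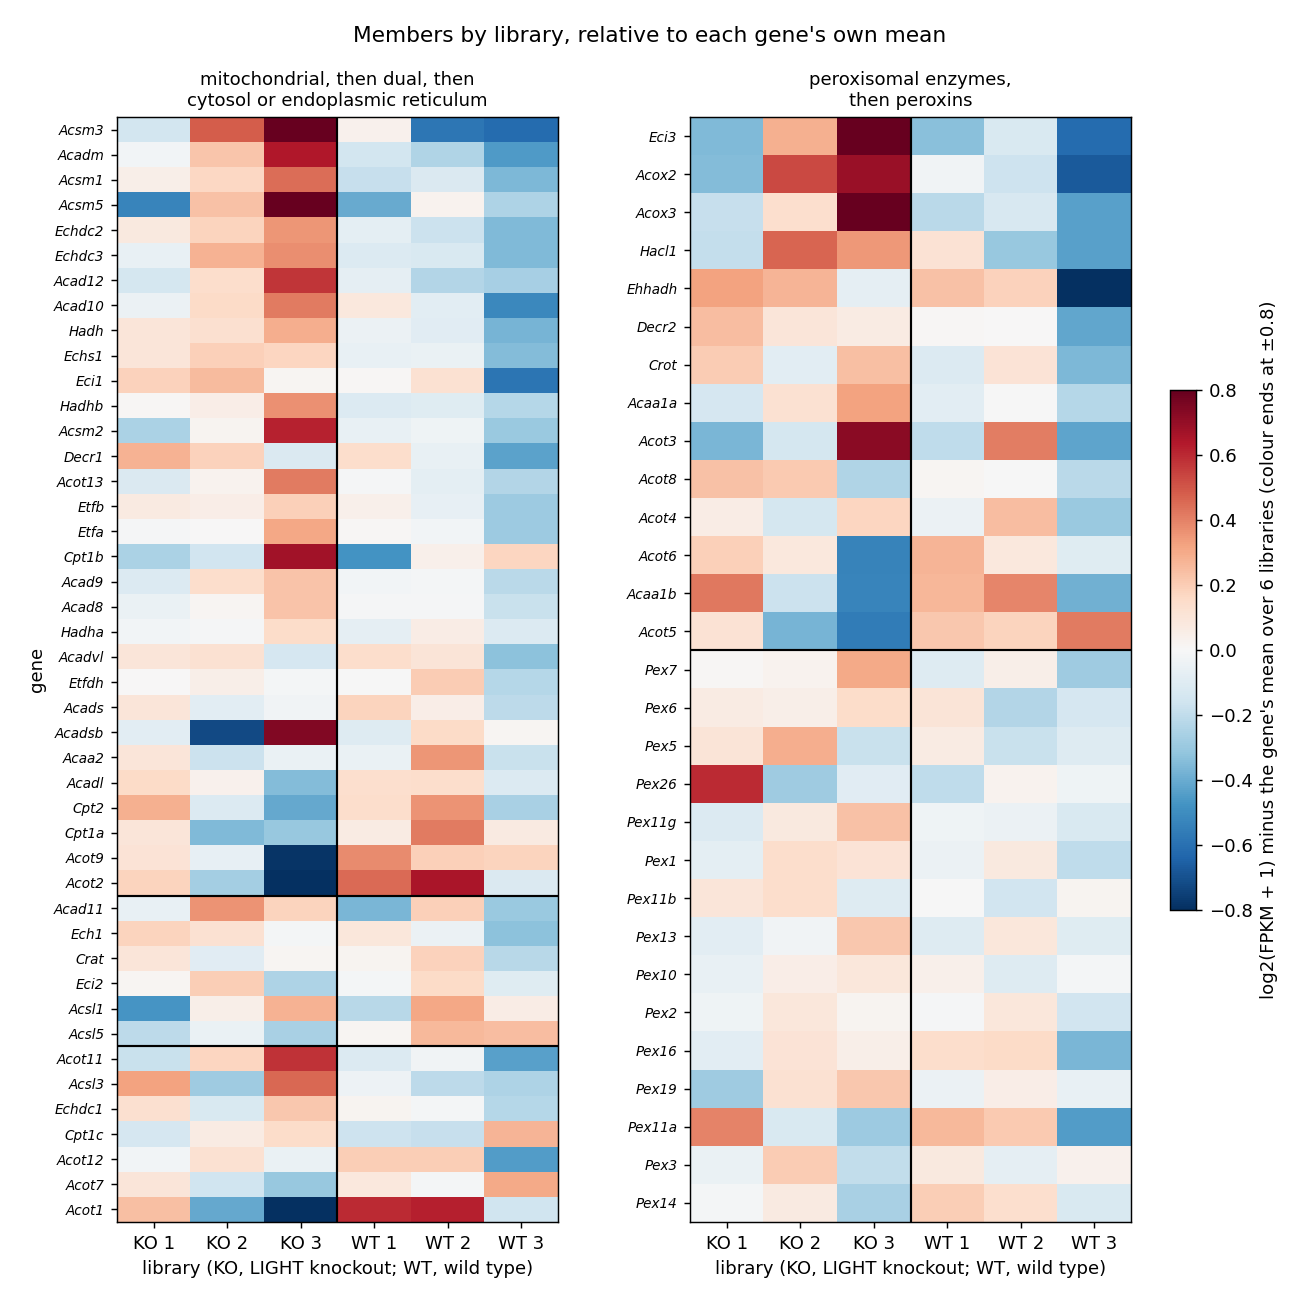
Colour gives log2(FPKM + 1) of each gene in each library minus that gene's mean over the 6 libraries, for 73 members by compartment, knockout libraries left of wild type. Over all 75 members, wild type library 3 is the lowest in 45, and knockout library 3 is the highest in 34 and the lowest in 15.

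Mitochondrial members differed between genotypes by a median log2 fold change of 0.21 and peroxisomal members by 0.12, a gap of 0.092. The 16 peroxins had a median of 0.062 and the 15 peroxisomal enzymes one of 0.21, so that with the peroxins set aside the gap was 0.001. Members above 0 numbered 23 of 31 in mitochondria, 12 of 15 among peroxisomal enzymes and 12 of 16 among peroxins. At an unadjusted p under 0.05 there were 8 mitochondrial members on the higher side (25.8%, against 4.34% of all genes) and 1 of 15 peroxisomal enzymes, Acot5, on the lower side (6.67%, against 3.74% of all genes). Acot5 is in the table through its wild type values. The members were chosen with results of these data known, so these medians are descriptions with no test.

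**Figure D2:**
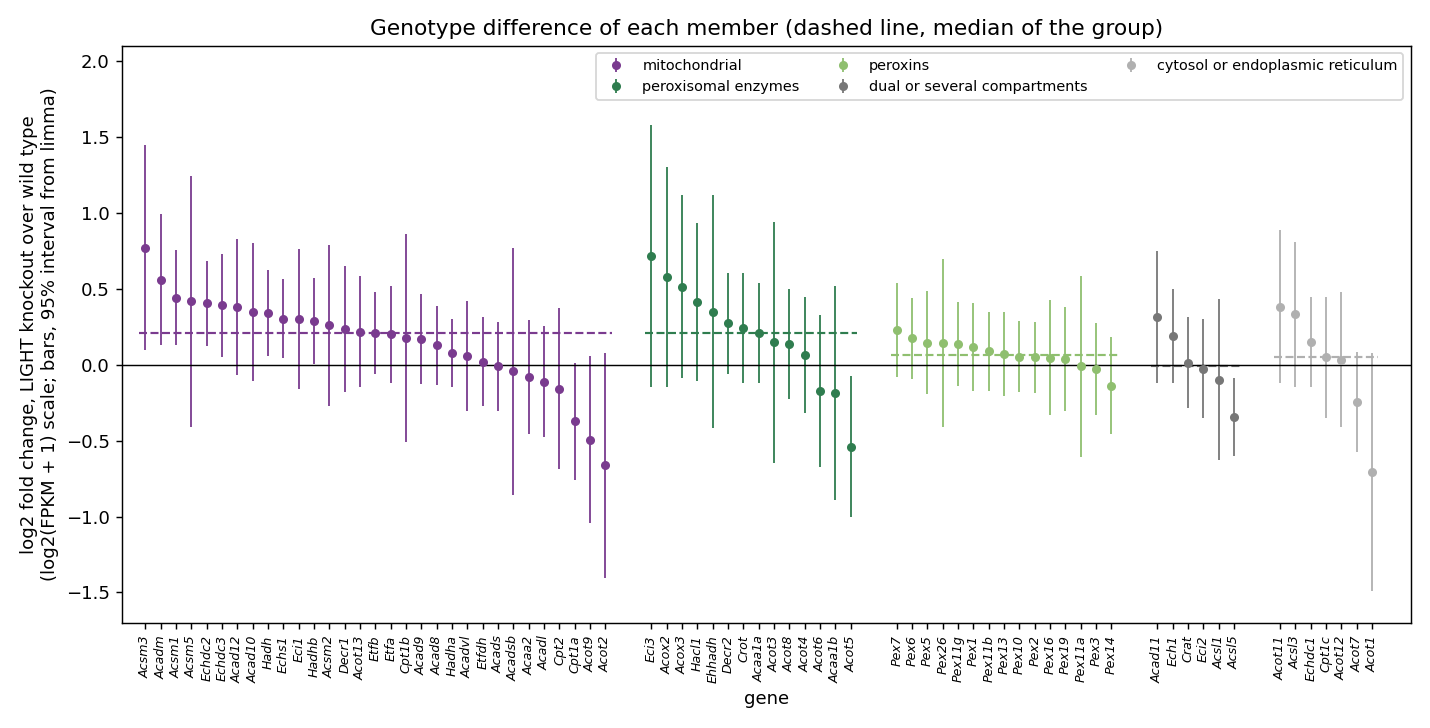
Each point is a member's log2 fold change, LIGHT knockout over wild type, on the log2(FPKM + 1) scale with its 95% interval from limma, for 73 members, and dashed lines are medians over all members of a group. The medians are 0.21 for mitochondrial members, 0.21 for peroxisomal enzymes and 0.062 for peroxins, and most intervals include 0.

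By library, the median deviation of the mitochondrial members from their own means was 0.011, 0.053 and 0.23 in knockout libraries 1 to 3, against -0.011, -0.016 and -0.26 in wild type libraries 1 to 3. Knockout library 3 and wild type library 3 lay far out, and the other 4 libraries lay between -0.016 and 0.053. Peroxisomal enzymes stood at 0.12, 0.12 and 0.17 in knockout, against 0.007, 0.084 and -0.42 in wild type. Here wild type library 3 alone lay far from the rest. Peroxins spread less, at -0.045, 0.075 and 0.067 in knockout, against 0.019, 0.05 and -0.12 in wild type, with a pooled SD of 0.078, against 0.13 for mitochondrial members and 0.19 for peroxisomal enzymes. The groups overlapped for the peroxins. They were apart for mitochondrial members only between 0.011 and -0.011, and for peroxisomal enzymes between 0.12 and 0.084. Summed FPKM overlapped in both sets of enzymes. Mitochondrial members summed to 1769, 1764 and 1917 FPKM in knockout, against 1761, 1795 and 1442 FPKM in wild type. Peroxisomal enzymes summed to 938, 828 and 721 FPKM in knockout, against 868, 881 and 526 FPKM in wild type. The whole-table median stayed between -0.036 and 0.04 in every library.

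**Figure D3:**
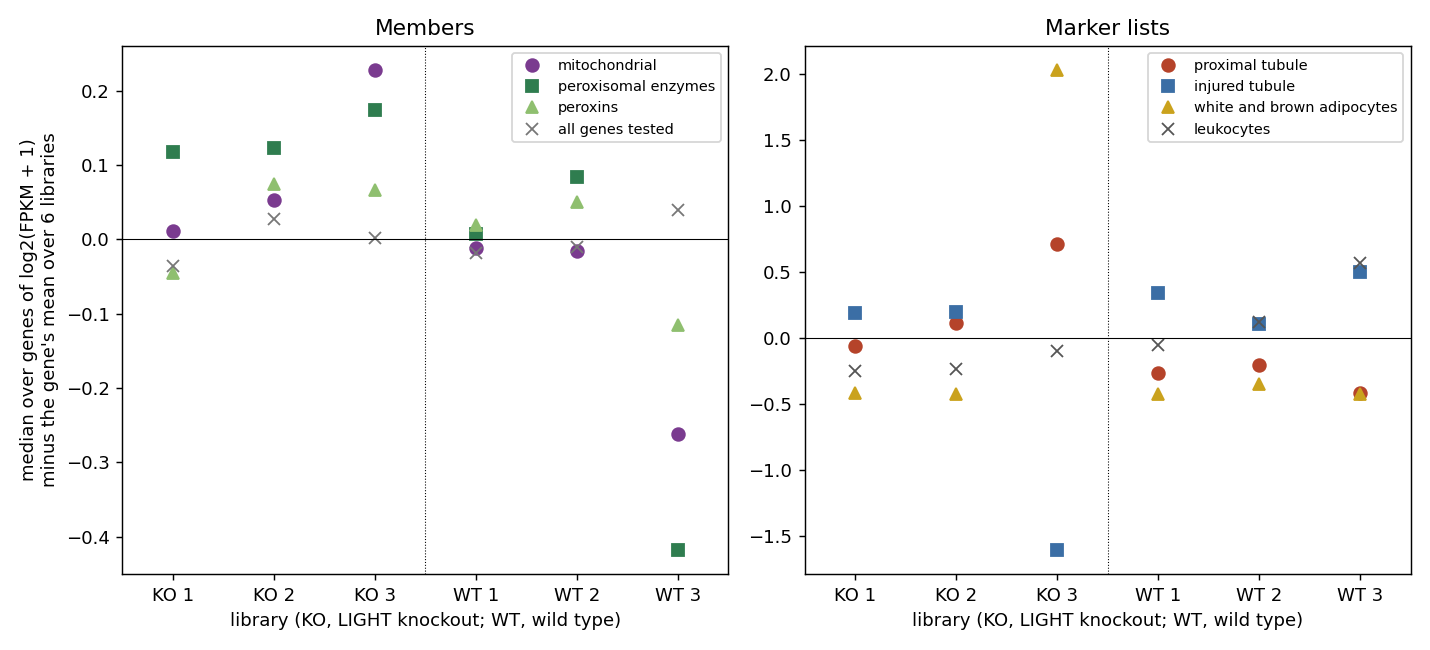
The left panel gives, for each library, the median over genes of log2(FPKM + 1) minus the gene's mean over the 6 libraries, for members by compartment and for all genes tested. The right panel gives the same for marker lists, where knockout library 3 stands at 0.71 for proximal tubule genes, -1.61 for injured tubule genes and 2.03 for adipocyte genes.

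Fatty acids are first activated to acyl-CoA. Acsl enzymes take long chains and Acsm enzymes, of the mitochondrial matrix, take medium chains. All 4 Acsm genes in the table had log2 fold changes above 0, from 0.26 to 0.77, and all 4 were highest in knockout library 3. Acsm1 stood at 38.2, 41.5 and 50.7 FPKM in the knockout libraries, against 32.3, 34.0 and 28.5 FPKM in the wild type libraries (log2 fold change 0.44, SE 0.13, limma adjusted p = 0.592). The groups did not overlap. Acsm3 stood at 29.0, 45.4 and 57.4 FPKM in knockout, against 33.0, 21.2 and 20.7 FPKM in wild type (log2 fold change 0.77, SE 0.28, limma adjusted p = 0.592), where knockout library 1 lay below wild type library 1. Acsm2, the most abundant of the family, stood at 149, 181 and 273 FPKM in knockout, against 171, 173 and 145 FPKM in wild type, with knockout library 2 slightly and library 3 well above the wild type range. Acsm5 was at 4.52, 8.37 and 14.0 FPKM in knockout, against 5.00, 7.12 and 5.69 FPKM in wild type, and its groups overlapped. Without the third library of each genotype the log2 fold change of Acsm2 was -0.066.

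Of the long-chain synthetases, Acsl1, which supplies oxidation and lipid synthesis, stood at 9.92, 14.7 and 17.3 FPKM in knockout, against 12.0, 17.8 and 14.8 FPKM in wild type (log2 fold change -0.10, SE 0.22, limma adjusted p = 0.891), with overlapping groups. Acsl5 of the endoplasmic reticulum and mitochondrial outer membrane stood at 50.2, 56.0 and 48.2 FPKM in the knockout libraries, against 58.7, 69.6 and 69.0 FPKM in the wild type libraries (log2 fold change -0.35, SE 0.11, limma adjusted p = 0.592). The 3 knockout values lay below all wild type values.

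Long chains enter mitochondria through the carnitine transferases Cpt1 and Cpt2 and a carrier between them, and no gene of this route passed the test. Cpt1a, the rate-setting transferase of the outer membrane in kidney and liver, stood at 107, 78.1 and 80.8 FPKM in the knockout libraries, against 105, 134 and 105 FPKM in the wild type libraries (log2 fold change -0.37, SE 0.16, limma adjusted p = 0.592). Knockout libraries 2 and 3 lay below every wild type library, while knockout library 1 lay among them. Cpt2, which reforms acyl-CoA inside, stood at 58.1, 44.0 and 35.6 FPKM in knockout, against 52.5, 61.2 and 39.5 FPKM in wild type (log2 fold change -0.16, SE 0.22, limma adjusted p = 0.827). Knockout library 3 held the lowest Cpt2 value, and without it the log2 fold change was 0.008. Slc25a20, the carrier that exchanges acylcarnitine for carnitine across the inner membrane and no member by name, stood at 17.1, 12.9 and 11.5 FPKM in knockout, against 17.4, 19.7 and 16.2 FPKM in wild type (limma adjusted p = 0.594). In Cpt1a, Cpt2 and Slc25a20 the knockout mean was the lower one, and in Cpt1b it was the higher one. Cpt1b, the muscle and brown fat form, was low, at 3.13, 3.42 and 6.83 FPKM in knockout, against 2.54, 4.07 and 4.55 FPKM in wild type. Its highest value, in knockout library 3, stands beside adipocyte markers in that library described further on, whose part in it was not tested. Cpt1b also shares 79.7% of its 31-base words with the gene model Gm44502, so its level is uncertain. Crot, which makes carnitine esters of shortened chains for export from peroxisomes, stood at 49.5, 40.5 and 51.0 FPKM in knockout, against 39.8, 46.3 and 33.2 FPKM in wild type (log2 fold change 0.24, SE 0.15, limma adjusted p = 0.642). Its groups overlapped. Crat, which handles acetyl groups, had a log2 fold change of 0.014 ± 0.13 (SE).

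The mitochondrial acyl-CoA dehydrogenases divide by chain length, and the medium-chain enzyme had the highest log2 fold change of the 9. Acadm, that enzyme (chromosome 3, 153922357 to 153944632 in mm10), stood at 92.5, 109.6 and 147 FPKM in the knockout libraries, against 84.7, 79.2 and 68.3 FPKM in the wild type libraries. Its means were 116 ± 27.7 FPKM in knockout and 77.4 ± 8.32 FPKM in wild type (SD, n = 3 each), and the log2 fold change was 0.56, SE 0.18, limma adjusted p = 0.592. The groups did not overlap, and knockout library 3 was the highest. Without knockout library 3 the log2 fold change was 0.38, and without wild type library 3 it was 0.47. Acadl, a long-chain enzyme and the most abundant mitochondrial member, stood at 214, 197 and 151 FPKM in knockout, against 212, 213 and 179 FPKM in wild type (log2 fold change -0.11, SE 0.15, limma adjusted p = 0.825). Acadvl, for very long chains, stood at 108, 110.4 and 92.0 FPKM in knockout, against 111, 109 and 80.6 FPKM in wild type (log2 fold change 0.058, SE 0.15, limma adjusted p = 0.908). Both had overlapping groups, with 95% intervals of -0.48 to 0.26 for Acadl and -0.31 to 0.42 for Acadvl. The short-chain Acads had a log2 fold change of -0.011 ± 0.12 (SE). The branched-chain enzymes Acad8 and Acadsb, which act in valine and isoleucine breakdown, had 0.13 ± 0.11 and -0.044 ± 0.34, and Acad9, which also assembles complex I, had 0.17 ± 0.12. Acadsb ranged widely within knockout, from 6.95 to 20.9 FPKM.

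The promoter of Acadm is shown because Acadm had the largest log2 fold change among the 12 members with groups that do not overlap, and because nuclear receptors are known to act on it. Promoter windows came from RefSeq for GRCm38.p6, the assembly of mm10, and 62 of the 75 members had one or more, 72 windows in all, each from 250 bases before to 50 after the annotated start. Letters in capitals mark matches on either strand to AAGGTCA (a nuclear receptor half-site), GGGCGG (GC box), CCAAT or TATAAA, which do not overlap here unless said. The 250 bases before the start of Acadm, minus strand, chr3:153944644-153944893, were read 5′ to 3′.
Acadm: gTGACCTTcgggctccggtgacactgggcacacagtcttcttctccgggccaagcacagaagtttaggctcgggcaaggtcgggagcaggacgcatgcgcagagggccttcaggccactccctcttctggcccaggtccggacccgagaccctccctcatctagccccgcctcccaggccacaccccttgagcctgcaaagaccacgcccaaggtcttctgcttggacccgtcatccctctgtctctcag
One half-site lay 249 to 243 bases before the start, and no other searched motif was found. AAGGTCA was present in 4.72% of all windows, in 3.38% of those of tested genes and in 7 of the 72 member windows (9.72%), of Acadm, Acot3, Acot4, Acot5 and Pex11g. It was in 1 of 27 mitochondrial windows (3.7%) and in 6 of 30 peroxisomal windows (20.0%). Those 6 windows belong to 4 genes, of which Acot3, Acot4 and Acot5 are neighbours on chromosome 12. The full direct repeat AGGTCANAGGTCA was in none of the member windows and in 0.0396% of all windows. GGGCGG was in 62.5% of member windows, against 61.3% of the windows of tested genes, and CCAAT in 51.4%, against 37.0%. TATAAA was in 8.33%, against 7.42%. A match is a description of letters and no test of binding.

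Peroxisomal oxidation starts with the Acox oxidases. Acox2 and Acox3 act on branched chains and bile acid intermediates. Acox2 stood at 9.70, 18.6 and 21.0 FPKM in knockout, against 12.4, 11.1 and 7.54 FPKM in wild type (log2 fold change 0.58, SE 0.30, limma adjusted p = 0.605), and Acox3 at 8.10, 10.4 and 17.3 FPKM in knockout, against 7.90, 8.48 and 6.66 FPKM in wild type (log2 fold change 0.52, SE 0.25, limma adjusted p = 0.598). Both overlapped through knockout library 1, which lay inside the wild type range. Ehhadh, the peroxisomal bifunctional enzyme that hydrates and oxidises in turn, stood at 185, 179 and 141 FPKM in knockout, against 175, 168 and 76.6 FPKM in wild type (log2 fold change 0.35, SE 0.32, limma adjusted p = 0.730). Apart from wild type library 3 its values lay between 141 and 185 FPKM, and without that library its log2 fold change was -0.035.

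**Figure D4:**
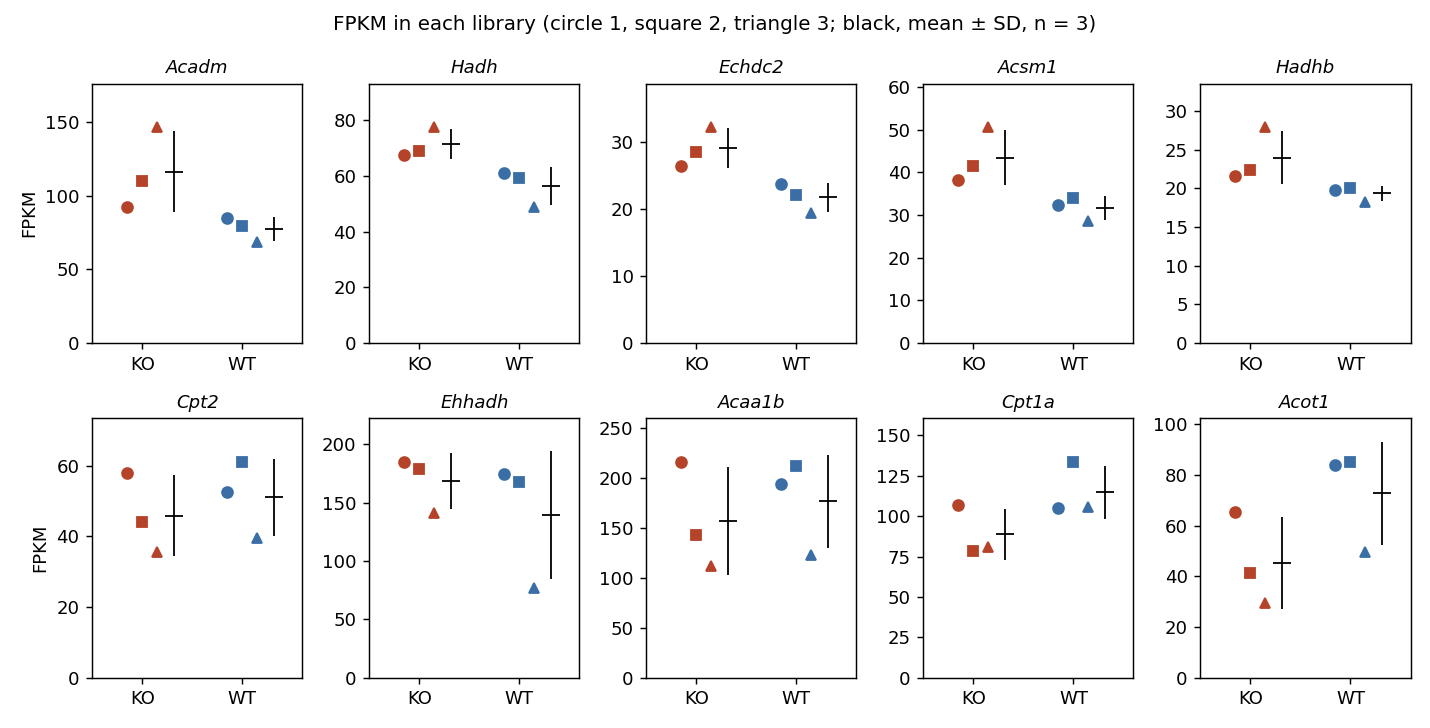
Points are FPKM of 10 members in each library (circle 1, square 2, triangle 3), knockout left of wild type, with mean ± SD in black (n = 3 each) and axes from 0. The upper 5 genes do not overlap between genotypes, and in Cpt2, Ehhadh, Acaa1b and Acot1 of the lower row the third library is the lowest of each genotype.

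Of the matrix enzymes of the later steps, Echs1 and Hadh had groups that do not overlap and the thiolase Acaa2 had groups that do. Echs1 hydrates short enoyl-CoA and Hadh oxidises the hydroxyacyl-CoA that results. Echs1 stood at 16.6, 17.8 and 17.6 FPKM in knockout, against 14.8, 14.9 and 12.0 FPKM in wild type (log2 fold change 0.30, SE 0.11, limma adjusted p = 0.592). Hadh stood at 67.6, 69.2 and 77.7 FPKM in the knockout libraries, against 61.1, 59.3 and 48.8 FPKM in the wild type libraries (log2 fold change 0.34, SE 0.12, limma adjusted p = 0.592). Every knockout library was above every wild type library in both, by margins smaller than the spread inside wild type. Without knockout library 3 the log2 fold changes were 0.29 for Echs1 and 0.28 for Hadh. Without wild type library 3 they were 0.21 and 0.24 in the same order. The mitochondrial thiolase Acaa2 had a log2 fold change of -0.081 ± 0.16 (SE, limma adjusted p = 0.871), with overlapping groups.

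Hadha and Hadhb encode the alpha and beta subunits of the trifunctional protein, which carries the last steps for long chains at the inner membrane. They lie head to head on chromosome 5, and the outermost annotated starts are 85 bases apart. Hadhb stood at 21.6, 22.3 and 28.0 FPKM in knockout, against 19.8, 20.0 and 18.2 FPKM in wild type (log2 fold change 0.29, SE 0.12, limma adjusted p = 0.592), with groups that did not overlap. Hadha stood at 24.5, 24.7 and 27.7 FPKM in knockout, against 23.7, 26.0 and 23.0 FPKM in wild type (log2 fold change 0.078, SE 0.094, limma adjusted p = 0.797), and its groups overlapped through wild type library 2. The fold change was smaller in the alpha subunit, but a difference between the subunits was not tested, and 23.3% of the 31-base words of Hadhb occur in other genes, mostly Gm13910. The bases between the starts are shown because both genes of the pair share them as promoter, plus strand, chr5:30155163-30155247.
Hadha and Hadhb: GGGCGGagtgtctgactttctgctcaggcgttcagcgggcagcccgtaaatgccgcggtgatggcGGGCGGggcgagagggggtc
The stretch holds 2 GC boxes, at bases 1 to 6 and 66 to 71, and none of the other motifs.

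The peroxisomal thiolases are a near copy of each other on chromosome 9. Acaa1b was the abundant one, at 217, 143 and 112 FPKM in knockout, against 195, 212 and 123 FPKM in wild type (log2 fold change -0.18, SE 0.29, limma adjusted p = 0.846), and Acaa1a stood at 14.9, 18.0 and 20.8 FPKM in knockout, against 15.4, 16.4 and 13.9 FPKM in wild type (log2 fold change 0.21, SE 0.14, limma adjusted p = 0.655). The genotypes overlapped in both. The log2 fold change of Acaa1b was 0.033 without knockout library 3. Acaa1b shares 40.0% of its 31-base words with Acaa1a, so reads may have been divided between them in ways the sources used here do not give. Summed over both, the level was 232, 161 and 133 FPKM in knockout, against 210.0, 229 and 137 FPKM in wild type.

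Auxiliary enzymes move or reduce double bonds of unsaturated chains. All but Eci2 had log2 fold changes above 0. Eci3, a peroxisomal isomerase abundant in mouse kidney, stood at 30.1, 47.2 and 86.7 FPKM in knockout, against 30.4, 35.5 and 24.9 FPKM in wild type (log2 fold change 0.72, SE 0.36, limma adjusted p = 0.598), and most of its difference lay in knockout library 3, without which the log2 fold change was 0.32. Decr2, the peroxisomal dienoyl-CoA reductase, stood at 34.4, 31.1 and 30.3 FPKM in knockout, against 29.1, 29.0 and 21.4 FPKM in wild type (log2 fold change 0.27, SE 0.14, limma adjusted p = 0.599) and did not overlap, with the highest value in knockout library 1. Its mitochondrial counterpart Decr1 had 0.23 ± 0.17 (SE), and the isomerase Eci1 had 0.30 ± 0.19. Ech1, an isomerase found in both organelles, stood at 135, 130.3 and 118 FPKM in knockout, against 127, 116 and 95.1 FPKM in wild type (limma adjusted p = 0.665), with overlap. Decr2 and Eci1 lie on chromosome 17 at 31.1 and 32.8 Mb from Tnfsf14, and Pex6 at 10.5 Mb. No other member lies on that chromosome, and the part of sequence linked to the locus was not tested.

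Electrons from the acyl-CoA dehydrogenases pass to the flavoprotein of Etfa and Etfb and then to Etfdh. Etfb stood at 129.7, 128 and 141 FPKM in knockout, against 127, 118 and 101 FPKM in wild type (log2 fold change 0.21, SE 0.11, limma adjusted p = 0.613) and did not overlap, though by less than 2 FPKM between knockout library 2 and wild type library 1. Etfa and Etfdh had log2 fold changes of 0.20 ± 0.13 and 0.021 ± 0.12 (SE). Etfb shares 47.3% of its 31-base words with the gene model Gm45233. Echdc2 and Echdc3, mitochondrial proteins of the enoyl-CoA hydratase family, had the smallest and sixth smallest unadjusted p among mitochondrial members. Echdc2 stood at 26.4, 28.5 and 32.2 FPKM in the knockout libraries, against 23.7, 22.1 and 19.3 FPKM in the wild type libraries (log2 fold change 0.40, SE 0.12, limma adjusted p = 0.592). Echdc3 stood at 5.77, 7.56 and 8.14 FPKM in knockout, against 5.54, 5.49 and 4.53 FPKM in wild type (log2 fold change 0.39, SE 0.14, limma adjusted p = 0.592). In each gene the 3 knockout values lay above the 3 wild type values. Hacl1, a lyase of alpha-oxidation in peroxisomes, stood at 5.01, 8.47 and 7.73 FPKM in knockout, against 6.43, 4.55 and 4.08 FPKM in wild type (limma adjusted p = 0.605), with overlap. Hacl1 shares 28.8% of its 31-base words with the gene model Gm49387.

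Thioesterases, which split acyl-CoA back to free acid and CoA, had the only median below 0 among the steps, at -0.068 over 12 genes, and knockout library 3 was the lowest in 7 of them. Acot1 of the cytosol and Acot2 of mitochondria are neighbours on chromosome 12 and near copies of each other. Acot1 stood at 65.2, 41.2 and 29.4 FPKM in the knockout libraries, against 83.8, 85.2 and 49.4 FPKM in the wild type libraries (log2 fold change -0.71, SE 0.33, limma adjusted p = 0.595). Acot2 stood at 32.0, 23.2 and 14.6 FPKM in knockout, against 38.9, 45.0 and 26.0 FPKM in wild type (log2 fold change -0.66, SE 0.31, limma adjusted p = 0.595). Both held their lowest value in knockout library 3 and, among wild type, in library 3, so the groups overlapped through wild type library 3. The sum of both was 97.2, 64.4 and 44.1 FPKM in knockout, against 123, 130.2 and 75.4 FPKM in wild type. The division of shared reads may still affect this sum, since FPKM depends on transcript length and both genes also share sequence with further genes. Without wild type library 3 the log2 fold change was -0.96 for Acot1 and -0.89 for Acot2, and without knockout library 3 it was -0.44 and -0.38.

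Acot3, Acot4 and Acot6, peroxisomal enzymes of the same cluster, had log2 fold changes closer to 0. Acot4 stood at 20.3, 17.6 and 22.0 FPKM in knockout, against 18.8, 23.2 and 15.6 FPKM in wild type (limma adjusted p = 0.904). Acot3 stood at 2.71, 3.34 and 6.90 FPKM in knockout, against 3.14, 5.35 and 2.56 FPKM in wild type, highest in knockout library 3. Acot6 stood at 7.31, 6.70 and 4.03 FPKM in knockout, against 7.78, 6.71 and 5.78 FPKM in wild type, lowest there. All 3 overlapped between genotypes. Acot5, at the floor of the table, stood at 0.676, 0.195 and 0.0499 FPKM in knockout, against 0.794, 0.748 and 1.06 FPKM in wild type (log2 fold change -0.54, SE 0.19, limma adjusted p = 0.592). Its knockout values lay below all wild type values, but a gene at this level is kept in the table only through the genotype in which it is higher. Of the 31-base words of Acot5, 29.7% occur in other genes, and of those of Acot3, 23.1%. Acot9 of mitochondria, named after its values were seen because its groups do not overlap, stood at 53.1, 47.0 and 28.1 FPKM in knockout, against 64.1, 56.1 and 55.7 FPKM in wild type (log2 fold change -0.49, SE 0.23, limma adjusted p = 0.595), the lowest value again in knockout library 3, and 28.0% of its 31-base words occur in Acot10. Acot13 of mitochondria, the most abundant thioesterase, stood at 98.4, 109 and 142 FPKM in knockout, against 106, 101 and 90.5 FPKM in wild type (log2 fold change 0.22, SE 0.15, limma adjusted p = 0.669), and Acot11 of the cytosol at 3.77, 5.08 and 7.07 FPKM in knockout, against 3.99, 4.28 and 3.00 FPKM in wild type (log2 fold change 0.38, SE 0.21, limma adjusted p = 0.614). Both were highest in knockout library 3 and overlapped.

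The promoters of Acot1, Acot2 and Acot4, neighbours on chromosome 12, are shown for their log2 fold changes of -0.71, -0.66 and 0.064. They were read on the plus strand at chr12:84009252-84009489, chr12:83987611-83987860 and chr12:84038129-84038378, up to the first annotated exon base, and distances are from the RefSeq start, which for Acot1 lies just past the printed stretch.
Acot1: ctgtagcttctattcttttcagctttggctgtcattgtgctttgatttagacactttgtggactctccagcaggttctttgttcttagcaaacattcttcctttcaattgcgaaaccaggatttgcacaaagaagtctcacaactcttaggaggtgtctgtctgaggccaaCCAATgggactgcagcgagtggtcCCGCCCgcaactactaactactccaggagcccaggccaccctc
Acot2: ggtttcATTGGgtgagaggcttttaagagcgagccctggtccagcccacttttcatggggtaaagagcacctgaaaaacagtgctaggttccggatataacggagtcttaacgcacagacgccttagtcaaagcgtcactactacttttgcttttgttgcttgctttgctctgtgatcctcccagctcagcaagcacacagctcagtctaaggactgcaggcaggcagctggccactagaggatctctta
Acot4: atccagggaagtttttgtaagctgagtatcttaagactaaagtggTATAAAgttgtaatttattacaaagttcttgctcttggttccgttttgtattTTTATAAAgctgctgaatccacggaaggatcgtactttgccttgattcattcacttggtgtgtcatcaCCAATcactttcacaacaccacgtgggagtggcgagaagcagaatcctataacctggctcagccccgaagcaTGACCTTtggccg
Acot1 holds a CCAAT box 79 to 75 bases and a GC box 55 to 50 bases before its start. Acot2 holds a CCAAT box 244 to 240 bases before its start. Acot4 holds the half-site 13 to 7 bases, a CCAAT box 85 to 81 bases and 3 TATAAA matches 205 to 146 bases before its start, the last 2 overlapping each other. Nothing about the factors follows from a window without a match.

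No peroxin reached an unadjusted p of 0.05. The highest log2 fold change was 0.23, for Pex7, and no peroxin separated the genotypes. Pex5, the import receptor for enzymes with a signal at the carboxyl end, stood at 19.1, 22.0 and 15.6 FPKM in knockout, against 18.6, 15.6 and 16.4 FPKM in wild type (log2 fold change 0.14, SE 0.14, limma adjusted p = 0.746). Pex7, the receptor for cargo with a signal near the amino end such as the thiolases, stood at 20.8, 21.0 and 25.6 FPKM in knockout, against 19.1, 21.3 and 16.7 FPKM in wild type (log2 fold change 0.23, SE 0.13, limma adjusted p = 0.620). Both overlapped. Pex6, an ATPase that recycles the import receptor, stood at 13.9, 13.8 and 14.8 FPKM in knockout, against 14.3, 11.1 and 12.0 FPKM in wild type (limma adjusted p = 0.648). Pex11a, a peroxisome division factor induced by PPAR alpha ligands, stood at 25.1, 17.2 and 15.2 FPKM in knockout, against 22.7, 21.9 and 13.5 FPKM in wild type (log2 fold change -0.011, SE 0.25, limma adjusted p = 0.991), with the third library lowest in each genotype. Pex19, a chaperone of membrane proteins, stood at 18.3, 24.5 and 26.3 FPKM in knockout, against 21.8, 23.3 and 21.5 FPKM in wild type. Pex2, a subunit of the ubiquitin ligase that acts on the import receptor, stood at 19.8, 21.7 and 20.6 FPKM in knockout, against 20.2, 21.7 and 18.2 FPKM in wild type. The docking protein Pex14 stood at 6.88, 7.38 and 5.68 FPKM in knockout, against 8.14, 7.77 and 6.32 FPKM in wild type, and Pex11g, of peroxisome division, at 3.13, 3.72 and 4.25 FPKM in knockout, against 3.35, 3.33 and 3.10 FPKM in wild type. The groups overlapped in these 4, with adjusted p in limma from 0.714 (Pex11g) to 0.946 (Pex19). Summed over the 16, peroxins reached 169, 175 and 172 FPKM in knockout, against 172, 171 and 146 FPKM in wild type, where library 3 was again the low one.

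In 4 lists of pathway genes outside the members, no gene passed the test over all genes, and in each list most log2 fold changes lay above 0. Of 28 other peroxisomal genes tested, 25 had log2 fold changes above 0 (against 47.9% of all genes) with a median of 0.27, 8 were higher at an unadjusted p under 0.05 (4.34% of all genes) and 9 did not overlap on the higher side (against 7.76% of all genes). Baat, which conjugates bile acids and fatty acids, stood at 1.10, 0.879 and 1.49 FPKM in knockout, against 0.267, 0.302 and 0.200 FPKM in wild type (log2 fold change 0.77, SE 0.14, limma adjusted p = 0.335), and Ddo, which oxidises D-aspartate, at 17.2, 17.7 and 20.2 FPKM in knockout, against 14.2, 11.1 and 10.6 FPKM in wild type (log2 fold change 0.59, SE 0.13, limma adjusted p = 0.592). The groups did not overlap in either, and the wild type mean of Baat is under 0.5 FPKM, so that Baat is in the table through the knockout values. Catalase, which removes the hydrogen peroxide of the oxidases, stood at 334, 308 and 360.1 FPKM in knockout, against 305, 279 and 213 FPKM in wild type (limma adjusted p = 0.595), just without overlap. Hsd17b4, the other peroxisomal bifunctional enzyme, stood at 102, 96.8 and 81.4 FPKM in knockout, against 92.5, 93.5 and 73.4 FPKM in wild type (limma adjusted p = 0.804), with overlap. Nudt7, a CoA diphosphatase, and the membrane protein Pxmp4 stood on the lower side, Nudt7 at 3.18, 3.20 and 3.07 FPKM in knockout, against 3.31, 3.94 and 2.55 FPKM in wild type and Pxmp4 at 48.3, 37.3 and 32.4 FPKM in knockout, against 43.2, 48.0 and 30.1 FPKM in wild type, both with overlap.

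Among 14 genes of fatty acid uptake and carnitine import, 11 lay above 0 (against 47.9% of all genes) with a median of 0.26, and 6 did not overlap on the higher side (against 7.76% of all genes). Fabp3, a fatty acid carrier of the cytosol, stood at 37.4, 59.4 and 72.4 FPKM in knockout, against 33.3, 33.9 and 33.7 FPKM in wild type (limma adjusted p = 0.592). Slc22a4, a transporter of ergothioneine and carnitine, stood at 18.4, 19.2 and 19.7 FPKM in knockout, against 15.9, 16.9 and 13.3 FPKM in wild type (limma adjusted p = 0.592). Neither overlapped. The lowest values relative to wild type were those of Slc25a20, given above, and Slc27a4, a fatty acid transporter, at 17.1, 17.2 and 13.8 FPKM in knockout, against 16.8, 16.7 and 15.7 FPKM in wild type. Of 26 genes of ketone body and branched-chain acyl-CoA enzymes, 22 lay above 0 (against 47.9% of all genes) with a median of 0.32, and 10 did not overlap on the higher side (against 7.76% of all genes). Aldh6a1, of valine breakdown, stood at 151, 189 and 258 FPKM in knockout, against 137, 139 and 102 FPKM in wild type, and Acsf3, a malonyl-CoA synthetase, at 23.2, 23.3 and 23.8 FPKM in knockout, against 20.6, 20.4 and 19.2 FPKM in wild type, each with an adjusted p of 0.592 in limma. Auh, of leucine breakdown, lay on the lower side, at 2.73, 3.36 and 3.86 FPKM in knockout, against 3.87, 3.82 and 3.76 FPKM in wild type, with overlap.

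PPAR alpha, its partners and its other targets gave values on both sides. Of 19 tested, 14 lay above 0 (against 47.9% of all genes) with a median of 0.12, and 1 was higher at an unadjusted p under 0.05, a share near the 4.34% of all genes. Ppara stood at 16.0, 16.2 and 17.2 FPKM in knockout, against 10.6, 16.4 and 10.2 FPKM in wild type (log2 fold change 0.41, SE 0.18, limma adjusted p = 0.592), and its coactivator Ppargc1a at 7.60, 9.38 and 15.8 FPKM in knockout, against 7.82, 9.29 and 7.89 FPKM in wild type (log2 fold change 0.30, SE 0.24, limma adjusted p = 0.705). Tysnd1, the protease that trims peroxisomal enzymes and was listed among peroxisomal genes too, stood at 17.7, 17.6 and 22.7 FPKM in knockout, against 14.9, 15.2 and 14.5 FPKM in wild type (limma adjusted p = 0.592) without overlap. The targets Plin2 and Angptl4 had their lowest value in knockout library 3. Plin2, a lipid droplet coat protein, stood at 211, 119 and 30.0 FPKM in knockout, against 239, 205 and 119 FPKM in wild type (limma adjusted p = 0.669). Angptl4, an inhibitor of lipoprotein lipase, stood at 30.9, 19.8 and 7.73 FPKM in knockout, against 25.0, 32.3 and 28.9 FPKM in wild type (limma adjusted p = 0.637). The groups overlapped in both.

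Markers of several cell types differed between libraries alongside the members, and their part in the members' values was not tested. All 17 proximal tubule markers were measured, 15 lay above 0, and 11 did not overlap on the higher side (against 7.76% of all genes). They summed to 5431 to 7247 FPKM in knockout, against 5012 to 5629 FPKM in wild type. Most of that sum was Kap, at 3717 to 4114 FPKM in knockout, against 3733 to 4207 FPKM in wild type. Of 13 injured tubule markers, 12 lay below 0 and 3 did not overlap on the lower side (against 8.8% of all genes). The 13 summed to 1828 to 6339 FPKM in knockout, against 6128 to 6866 FPKM in wild type, with the lowest sum in knockout library 3. Most of that sum was Spp1, at 1322 to 4691 FPKM in knockout, against 4265 to 4764 FPKM in wild type. Of 11 leukocyte markers, 8 were tested, 6 lay below 0 and 3 did not overlap on the lower side (against 8.8% of all genes). The 8 summed to 95.1 to 111 FPKM in knockout, against 122 to 234 FPKM in wild type, with the highest sum in wild type library 3. The 12 markers of the thick ascending limb and distal nephron summed to 571 to 1393 FPKM in knockout, against 678 to 1018 FPKM in wild type. The 9 endothelial and stromal markers summed to 238 to 278 FPKM in knockout, against 249 to 393 FPKM in wild type.

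Markers of fat appeared in knockout library 3. Of 13 adipocyte markers, 11 were tested and all 11 had log2 fold changes above 0 (against 47.9% of all genes). Most of them, among them Adipoq, Cfd, Cidea and Ucp1, had wild type means under 0.5 FPKM. Such genes are in the table only through the knockout values, so their direction was fixed in advance. The 11 summed to 538 to 794 FPKM in knockout, against 217 to 515 FPKM in wild type. Most of that sum was Pck1, which the proximal tubule expresses too. Adipoq, which defines adipocytes, stood at 0.0659, 0 and 13.1 FPKM in knockout and was listed at 0 in every wild type library. Cfd, a complement factor that adipocytes secrete, stood at 0, 0.147 and 63.6 FPKM in knockout and was also listed at 0 in wild type. The brown fat genes Cidea and Ucp1 stood at 0, 0 and 6.54 and at 0.0560, 0 and 4.65 FPKM in knockout, against at most 0.110 FPKM of either in wild type. Of muscle markers 1 of 10 was in the table at no more than 1.08 FPKM, and of adrenal markers 1 of 9 at no more than 1.63 FPKM.

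The members' medians depended on the third library of each genotype. Without knockout library 3 the median log2 fold change was 0.095 for mitochondrial and 0.099 for peroxisomal members, and without wild type library 3 it was 0.11 and 0.052. Without both, an alternative chosen after the data were seen, it was 0.012 and 0.028, and 43 of 74 members lay above 0. Without knockout library 2 the peroxisomal median was 0.077. Leaving out any other single library gave 0.24 to 0.27 for mitochondrial and 0.12 to 0.15 for peroxisomal members. At an unadjusted p under 0.05 there were 5 members higher and 1 lower without knockout library 3 (3.86% of all genes on the higher side), 2 and 2 without wild type library 3 (2.48%), and 3 and 3 without both (3.59%). Leaving out knockout library 1 gave 16 higher and 7 lower, where 7.53% of all genes were on the higher side. Over both directions, all genes had shares of 7.16% without knockout library 3 and 4.39% without wild type library 3. The share was 6.49% without both and 12.8% without knockout library 1. No member passed an adjusted p of 0.05 in any of these fits. Among the 9 members with groups apart on the higher side, log2 fold changes without both libraries ran from 0.075 for Etfb to 0.29 for Acadm. Their direction was fixed in advance, since groups that are apart stay apart when libraries are left out. Acot1, Acot2 and Cpt1a had -0.69, -0.60 and -0.37 in that fit.

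**Figure D5:**
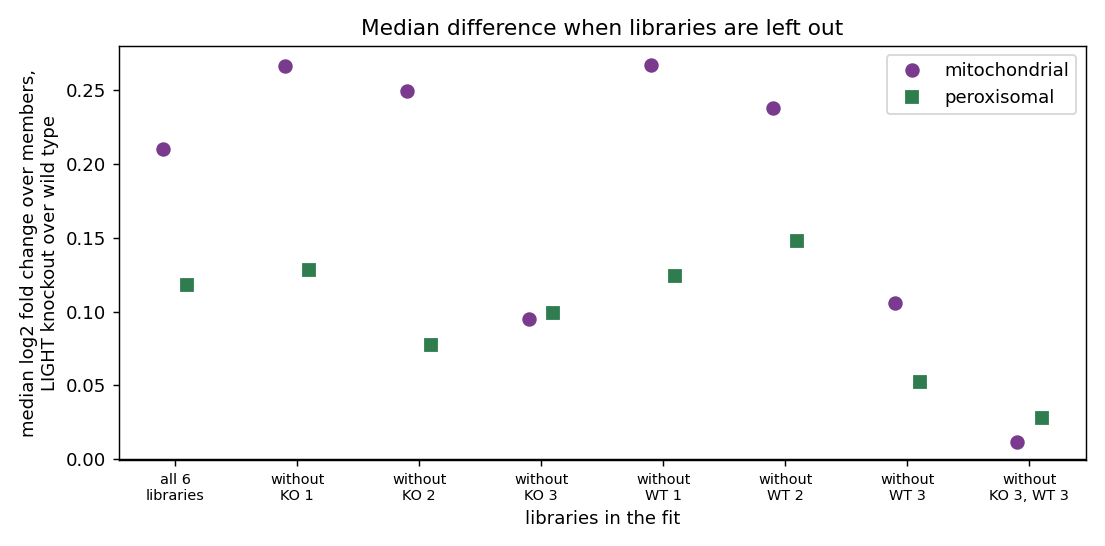
Points are median log2 fold changes, LIGHT knockout over wild type, over mitochondrial and peroxisomal members when the fit uses all 6 libraries or leaves some out. Both medians are nearest 0 without the third library of each genotype, at 0.012 and 0.028.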

How the data were processed

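RNA from whole kidneys was sequenced in 6 libraries. The submitters' processing notes name the tools FastQC, HISAT2 and StringTie and the genome build mm10. Versions, annotation and the use of strand are not given in the sources used here. FPKM values for each gene were deposited by the authors. Each library's own file held the same values as the table, and in every row the higher group mean was at least 0.50043 FPKM. Read counts are absent, so depth and its precision are unknown. Values were taken as log2(FPKM + 1), and 12836 genes whose mean reached 0.5 FPKM were kept and 190 removed. Genotypes were tested in limma 3.58.1 under R 4.3.3 by a two-sided moderated test with a mean-variance trend, adjusted by Benjamini-Hochberg over all genes kept. The code was tested on simulated data. Members, compartments, lists and rules were chosen with earlier results of these data known. The rule for naming takes the members of smallest p and highest level in each compartment, core enzymes, and the Acot and Acsm families, and other members of a step were added after their values were seen. Identifiers of 13005 of 13026 genes were found in GENCODE M21, which gave coordinates and the 31-base words shared between genes. A few named genes are not reported here. Promoters are from RefSeq. Alternatives varied pseudocount, filter, scaling, variance model, replicate block, libraries and placement of members.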

Additional observations from a re-analysis of the deposited data

How the results depend on the processing

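No member and no pathway gene passed the test under any alternative run. Over all genes, 15 passed, against 9 with a mean of at least 5 FPKM, 52 with library weights, and 0 to 11 with libraries left out (7, 0 and 11 without knockout library 1, 2 or 3, and 0, 6 and 0 without wild type library 1, 2 or 3). The gap between the mitochondrial and peroxisomal medians was 0.026 with library weights, 0.001 without peroxins, and between -0.016 and 0.17 with libraries left out. The mitochondrial median ran from 0.012 to 0.27 with libraries left out, lowest without the third library of each genotype. Library weights gave 24 members an unadjusted p under 0.05, where 20.1% of all genes had one. The labels state no pairing of the samples. Same-numbered libraries had correlations of 0.15, -0.13 and -0.019 between their deviations, and differently numbered ones had -0.14 to 0.18. With 3 libraries a genotype these values cannot show whether samples were paired. With the replicate block 0 genes passed in the whole table.

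Some named genes turned sign, among them Ehhadh, Ppargc1a and Acsm2, with log2 fold changes of 0.35, 0.30 and 0.26 over all libraries. With libraries left out, the lowest and highest log2 fold changes of the genes that turned were as follows. Acaa1b ran from -0.44 to 0.033, Acadl from -0.21 to 0.036, Acadvl from -0.091 to 0.14 and Acot3 from -0.35 to 0.39. Acot4 ran from -0.14 to 0.20, Acot6 from -0.31 to 0.053 and Acsl1 from -0.26 to 0.11. Acsm2 ran from -0.066 to 0.45, Cpt1b from -0.12 to 0.34, Cpt2 from -0.34 to 0.008 and Ehhadh from -0.035 to 0.56. Hadha ran from -0.011 to 0.13, Hsd17b4 from -0.003 to 0.20, Nudt7 from -0.15 to 0.086 and Pex11a from -0.24 to 0.13. Pex19 ran from -0.087 to 0.19, Pex2 from -0.016 to 0.10, Ppargc1a from -0.011 to 0.50 and Pxmp4 from -0.23 to 0.10. Slc27a4 ran from -0.088 to 0.061. With library weights Acot3 had -0.22, Acot4 -0.17, Cpt1b -0.045 and Slc27a4 0.039. Pex11a had 0.001 after quantile normalization and 0.008 after rescaling without mitochondrially encoded genes. The cause of these turns was not tested. Acot5 has no value where wild type library 3 is left out, since its mean is then under 0.5 FPKM. Unknown depth and 3 libraries a genotype limit what these data can show.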
